A study of Mus musculus with 14 samples.

Results

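Transcripts of 40 proliferation genes were examined in cultures of primary microglia, the macrophages that reside in brain tissue, made from pups of a TIMP2 KO line and of wild-type (WT) mice. The 40 genes were chosen by name, as genes known for their roles in S phase or in mitosis, and matched by symbol to the annotation of the mouse genome (GRCm38), which gave exactly 1 row for each in a table of 49315 genes. They comprised 17 S phase genes (Pcna, Mcm2, Mcm3, Mcm4, Mcm5, Mcm6, Mcm7, Cdc6, Cdt1, Gins1, Gins2, Rrm1, Rrm2, Tyms, E2f1, Ccne1 and Ccne2) and 23 mitosis genes (Mki67, Top2a, Ccna2, Ccnb1, Ccnb2, Cdk1, Aurka, Aurkb, Bub1, Bub1b, Plk1, Cdc20, Ube2c, Cenpe, Cenpf, Kif11, Kif23, Tpx2, Nusap1, Prc1, Foxm1, Cdca8 and Hmmr). All 40 passed the filter on low counts, as did 15700 genes in all.

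There were 7 KO and 7 WT cultures, each sequenced as 1 bulk RNA library from a pool of 5 pups of both sexes. All animals were of the C57BL/6 strain and were taken at postnatal day 6 to 7. KO animals came from a line with a global deletion of TIMP2, a secreted inhibitor of metalloproteinases, and WT animals carried no deletion. Microglia were selected from forebrain with CD11b microbeads and kept in culture with serum before collection, so the cultures are a model of microglia outside the brain. Bulk counts cannot tell fewer cycling cells apart from less of a transcript in each cycling cell.

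Cells that enter the cycle first switch on genes that license and copy DNA, largely through the E2F transcription factors, which are held back by the retinoblastoma proteins until G1 cyclins and their kinases act. Genes of G2 and mitosis follow, switched on by B-MYB and FOXM1 through CHR elements and the NF-Y factor at CCAAT boxes. Microglia divide widely in the first postnatal weeks and rarely in the resting adult brain, and they resume division in culture when growth factors are supplied.

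To show the sequences that such factors could read, the 250 bases before the start are given for the 3 S phase genes (Rrm1, Mcm2 and Mcm5) and the 3 mitosis genes (Cenpe, Cdk1 and Top2a) whose levels across cultures ran closest to the rest of their own list. The sequences are from RefSeq, build GRCm38.p6, written 5′ to 3′ on the strand of the gene. Capitals mark CCAAT, the CHR-like words TTTGAA and TTTAAA, and the E2F-like words TTTCCCGC, TTTCGCGC, TTTGCCGC and TTTGGCGC, each searched on both strands, so that ATTGG is CCAAT and TTCAAA is TTTGAA on the other strand. In Mcm5 a pair of E2F-like words on opposite strands overlap and read as 1 run of capitals.
Rrm1, chr7:102441445-102441694, forward strand: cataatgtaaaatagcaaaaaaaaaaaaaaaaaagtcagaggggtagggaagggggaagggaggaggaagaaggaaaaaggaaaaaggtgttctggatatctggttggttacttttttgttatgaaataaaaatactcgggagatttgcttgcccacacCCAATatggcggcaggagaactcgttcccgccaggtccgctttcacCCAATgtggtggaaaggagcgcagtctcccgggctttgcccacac
Mcm2, chr6:88898781-88899030, reverse strand: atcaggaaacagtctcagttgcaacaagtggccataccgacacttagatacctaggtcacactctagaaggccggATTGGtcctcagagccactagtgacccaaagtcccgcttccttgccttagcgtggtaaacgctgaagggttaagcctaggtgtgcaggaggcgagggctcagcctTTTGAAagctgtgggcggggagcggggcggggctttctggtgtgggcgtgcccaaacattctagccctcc
Mcm5, chr8:75109259-75109508, forward strand: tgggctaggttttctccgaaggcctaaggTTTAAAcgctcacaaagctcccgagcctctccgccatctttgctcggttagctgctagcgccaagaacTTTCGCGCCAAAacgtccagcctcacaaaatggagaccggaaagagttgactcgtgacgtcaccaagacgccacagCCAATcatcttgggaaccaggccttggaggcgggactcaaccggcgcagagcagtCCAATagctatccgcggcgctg
Cenpe, chr3:135212313-135212562, forward strand: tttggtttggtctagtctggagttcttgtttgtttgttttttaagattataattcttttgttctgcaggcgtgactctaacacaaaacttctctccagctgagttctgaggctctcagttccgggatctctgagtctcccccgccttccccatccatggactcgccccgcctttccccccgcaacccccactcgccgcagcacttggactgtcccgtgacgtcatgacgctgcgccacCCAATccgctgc
Cdk1, chr10:69352913-69353162, reverse strand: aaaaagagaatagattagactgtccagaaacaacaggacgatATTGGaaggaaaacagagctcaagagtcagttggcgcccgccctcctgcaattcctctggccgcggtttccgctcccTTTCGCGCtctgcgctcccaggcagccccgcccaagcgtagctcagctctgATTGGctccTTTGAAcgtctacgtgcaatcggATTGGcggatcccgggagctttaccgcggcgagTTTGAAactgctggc
Top2a, chr11:99024190-99024439, reverse strand: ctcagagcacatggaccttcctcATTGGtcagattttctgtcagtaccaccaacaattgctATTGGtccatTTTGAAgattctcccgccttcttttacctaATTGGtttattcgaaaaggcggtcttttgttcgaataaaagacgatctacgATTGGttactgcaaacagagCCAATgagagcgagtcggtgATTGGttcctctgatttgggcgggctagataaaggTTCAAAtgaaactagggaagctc

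The Cdk1 window held 1 E2F-like word at 131 bases before the start, 2 TTTGAA words and 3 CCAAT boxes. The Top2a window held 6 CCAAT boxes and 2 TTTGAA words, and that of Mcm5 held the overlapping pair of E2F-like words, 1 TTTAAA word and 2 CCAAT boxes. Mcm2 held 1 TTTGAA word, 70 bases before the start, and 1 CCAAT box. In Rrm1 and Cenpe the words found were CCAAT alone, at 2 places and at 1.

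Across the lists, CCAAT and TTTGAA were found most often before mitosis genes and the E2F-like words before S phase genes. RefSeq promoters were at hand for 32 of the 40 genes, 2 of which had 2 promoters. CCAAT was present before 18 of 19 mitosis genes, all but Nusap1, and before 8 of 13 S phase genes, and in 33.8% of all 32851 promoters. More than 1 CCAAT box was found before 12 of the 19 mitosis genes and 5 of the 13 S phase genes, and in 10.1% of all promoters. TTTGAA stood before 8 of 19 mitosis genes, namely Mki67, Top2a, Cdk1, Ccnb2, Cdc20, Ube2c, Kif11 and Prc1, and before 1 of 13 S phase genes, Mcm2, against 16.0% of all promoters. TTTAAA, which reads the same on both strands, stood before 3 mitosis genes (Ccnb1, Cenpf and Plk1) and 2 S phase genes (Ccne1 and Mcm5), against 12.1%. The E2F-like words were found before 4 of 13 S phase genes (Cdc6, Mcm5, Mcm6 and Mcm7) and 1 of 19 mitosis genes (Cdk1), against 1.86% of all promoters. A match is a description of the letters, and no binding was measured.

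The libraries held between 38875344 and 48070236 counted reads. Timp2, the deleted gene, was measured at 120 to 129 CPM in KO and 398 to 495 CPM in WT, with every KO library below every WT library (log2 fold change −1.92, adjusted p = 1.53e-12 in edgeR), so each library matched its genotype label. CPM are counts scaled to the size of each library, here after TMM scaling between libraries. All 13 microglia markers were detected, with a summed level between 11663 and 14646 CPM, whereas the homeostatic markers P2ry12 (26.1 to 54.1 CPM) and Tmem119 (1.84 to 6.27 CPM) were low. The astrocyte markers summed to between 30.6 and 276 CPM. Top2a, Cdc6, Aurkb and Hmmr lie on the chromosome of Timp2, 19.3, 19.4, 49.2 and 77.6 Mb from it. Of the other cell cycle lists, 2 genes, Birc5 and Tk1, lie within 0.445 and 0.475 Mb.

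The 40 genes were expressed in every culture, and S phase genes were generally more abundant than mitosis genes. On the scale of CPM per kilobase of exon, which allows levels to be compared between genes, the S phase genes had a median of 6.18 (0.720 to 134) and the mitosis genes a median of 2.08 (0.542 to 4.17). The 12 highest of the 40 were all S phase genes. Counts were sufficient throughout, since the mean count per library was 162 for the lowest gene, Cdc6, and 13931 for the highest, Pcna, and the lowest single count was 55.

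Pcna, the sliding clamp that holds DNA polymerases on their template, stood far above the rest at 134 CPM per kilobase. Cdt1, which loads the MCM helicase onto origins, followed at 22.1. Of the subunits of that helicase, Mcm6 (18.8) and Mcm3 (18.2) were the most abundant, followed by Mcm5 (9.96), Mcm4 (9.81), Mcm7 (8.09) and Mcm2 (6.18 CPM per kilobase). E2f1, a transcription factor of the G1 to S transition, was at 9.79. Rrm2 (5.49) and Rrm1 (4.53), the subunits of the reductase that makes deoxyribonucleotides, and Gins1 (4.85), a subunit of the GINS complex of the replication fork, came next. Tyms, which makes thymidylate, was at 1.08 CPM per kilobase. The cyclins of S phase entry were low, at 1.44 for Ccne1 and 1.24 for Ccne2, and Cdc6, the partner of Cdt1 in loading MCM, was the lowest S phase gene at 0.720 CPM per kilobase.

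Among the mitosis genes, Top2a, the topoisomerase that untangles sister chromatids, was highest at 4.17 CPM per kilobase. Mki67, which encodes the Ki-67 antigen used as a proliferation marker, followed at 3.60, and Cdc20, an activator of the anaphase-promoting complex, at 3.49. Plk1, a mitotic kinase, was at 3.05, and the cyclins and kinase that drive mitotic entry were at 2.92 (Ccnb2), 2.71 (Ccna2), 2.60 (Cdk1) and 1.69 (Ccnb1). The spindle motors Cenpe (1.37), Kif11 (1.34) and Kif23 (0.934) and the spindle protein Hmmr (0.895) were lower, and Cenpf, a kinetochore protein, was lowest at 0.542 CPM per kilobase. Exon lengths were taken over all annotated transcripts, so a gene with long minor transcripts is placed too low on this scale.

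Some members overlap other genes, and the strand setting of the counting is not given in the sources used here, so whether reads were shared is not known. Gins2, a further GINS subunit, overlaps Gse1 on the opposite strand over 67.3% of its exon bases, so its level (2.69 CPM per kilobase) is uncertain. The overlap was 22.8% for Ube2c (with Tnnc2), 17.4% for Ccne2 (with Ints8), 12.5% for Ccna2 (with Exosc9) and 11.1% for Prc1 (with Rccd1). Ccnb2 has a pseudogene that received a mean of 48.7 counts against 192 for Ccnb2 itself.

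**Figure D1:**
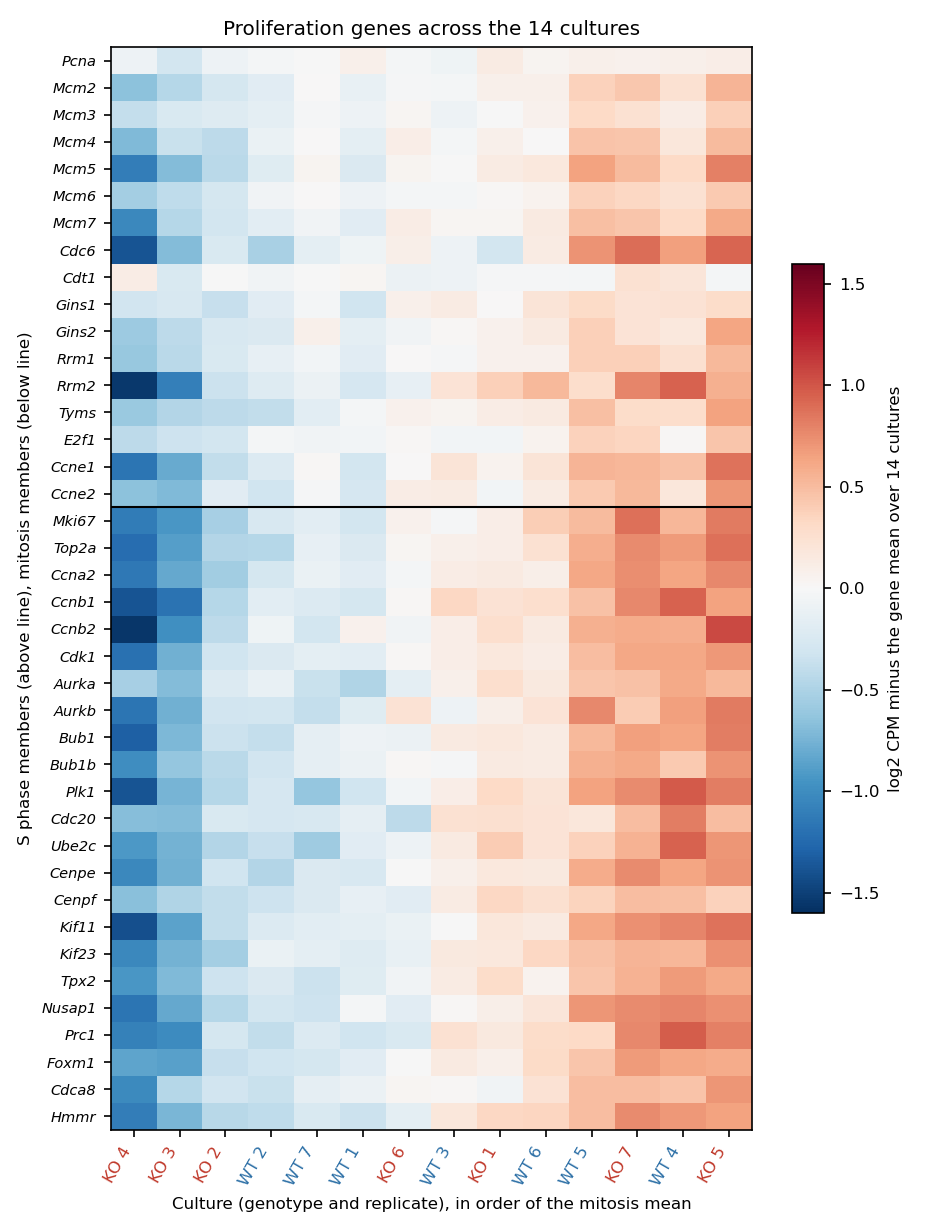
Levels of the 40 genes in the 14 cultures, as log2 CPM minus each gene's mean over the cultures (red above, blue below the mean). Columns are cultures in order of the mean of the 23 mitosis genes, from KO replicate 4 to KO replicate 5, with KO names in red and WT names in blue. Nearly all rows change from blue to red along the same order, while Pcna and Cdt1 stay pale.

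The main difference in these genes was between cultures and not between genotypes. Mki67 was measured at 15.3 CPM in its lowest culture and 61.9 CPM in its highest, a 4.04-fold range, and both cultures were KO. Across all 40 genes the lowest and highest cultures were both KO for 30 genes. KO replicate 4 was the lowest of the 14 cultures for 33 of the 40 genes, against 7.8% of all tested genes, and KO replicate 5 or 7 was the highest for 29, against 17.8% of all tested genes. WT replicate 4 was the highest for 9 of the remaining genes. The share over all tested genes was not counted for this or for the 30 genes above. Since the 40 genes move together across cultures, these counts are not independent observations.

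The highest culture exceeded the lowest by a median of 3.72-fold over the mitosis genes (2.24 to 6.17) and 2.31-fold over the S phase genes (1.34 to 5.65), beside a median of 1.42-fold over all tested genes. All 23 mitosis genes and 11 of the 17 S phase genes varied over 2-fold, and the share of all tested genes that did was not counted. Ccnb2, a B-type cyclin, varied most, from 1.38 CPM in KO replicate 4 to 8.49 CPM in KO replicate 5. Rrm2 varied most of the S phase genes, from 4.72 CPM in KO replicate 4 to 26.7 CPM in WT replicate 4. At the other end, Pcna lay between 261 and 350 CPM and Cdt1 between 58.1 and 81.7 CPM. The counting error of 1 library at the mean count was at most 7.86% for any of the 40 genes, which is small beside these ranges. It is larger in the lowest cultures, where the lowest single count was 55. The cause of the spread was not tested, and the labels name no batch or culture date.

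Genes high in one culture were high together. After the genotype means were removed, Mki67 was correlated with Top2a at r = 0.99 (Spearman rho 0.97, permutation p = 1e-05 for each, the smallest p that 100000 permutations within genotype can give, adjusted p = 0.00171 for r over all tested genes, n = 14 cultures). Without KO replicates 3 and 4, the cultures farthest from the median of Mki67 in log2 CPM before the genotype means were removed, r was 0.98. Of the 39 other genes, 37 had r over 0.8 with Mki67, as had 2.34% of the 15699 other tested genes, and 37 had a permutation p under 0.05 after adjustment over all those genes, with r above 0, against 2.25%. The genes below that threshold were Pcna and Cdt1.

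Pcna was correlated with Mki67 at r = 0.73 (rho 0.72, permutation p = 0.0127, adjusted p = 0.175 over all tested genes), and at 0.69 without those cultures. For Cdt1, r was 0.38 (rho 0.18, permutation p = 0.295, adjusted p = 0.700 over all tested genes). The lowest r among the mitosis genes was that of Cdc20, at 0.87 (rho 0.85, permutation p = 0.00036, adjusted p = 0.0190 over all tested genes).

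Within each genotype the same relation was seen. Mki67 and Cdk1, the kinase that drives entry into mitosis, had r of 0.98 in KO and 0.93 in WT (n = 7 each), and for Mki67 and Mcm2, a helicase subunit, these were 0.99 and 0.91. For E2f1 they were 0.98 in KO and 0.67 in WT. Over all pairs of mitosis genes r had a mean of 0.95 (0.83 to 1.00, 253 pairs), over pairs of S phase genes 0.83 (0.16 to 1.00, 136 pairs) and over pairs of 1 gene from each list 0.87 (0.23 to 0.99, 391 pairs), whereas the mean over all pairs of tested genes was 0.00157. The first principal component held 94.5% of the variance of the 40 genes within genotypes. These pairs share the same 14 libraries and their scaling.

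**Figure D2:**
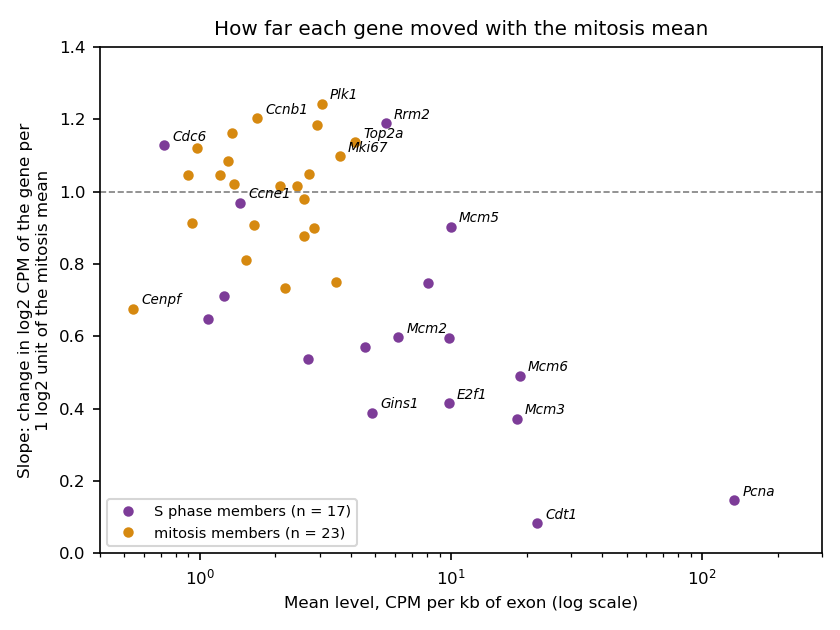
Change in log2 CPM of each gene per 1 log2 unit of the mean of the (other) mitosis genes across the 14 cultures, after removal of genotype means (vertical axis), against the gene's mean level in CPM per kilobase of exon on a log scale (horizontal axis). Purple points are 17 S phase genes and orange points 23 mitosis genes. Mitosis genes sit between 0.68 and 1.24, while S phase genes run from 1.19 for Rrm2 down to 0.08 for Cdt1.

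How far each gene moved differed between and within the lists. For each log2 unit of change in the mean of the mitosis genes, the mitosis genes moved by a median of 1.02 (0.68 for Cenpf to 1.24 for Plk1) and the S phase genes by a median of 0.60. Each mitosis gene was set against the mean of the others in its own list, so a median close to that unit follows from the construction. A slope also falls where a gene follows that mean loosely, as Cdt1 did (r = 0.37). Rrm2 (1.19) and Cdc6 (1.13) moved as far as mitosis genes, and Ccne1 (0.97) and Mcm5 (0.90) nearly so. Mcm7 (0.75), Ccne2 (0.71), Tyms (0.65), Mcm2 (0.60), Mcm4 (0.60), Rrm1 (0.57), Gins2 (0.54) and Mcm6 (0.49) lay in between.

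E2f1 (0.42), Gins1 (0.39) and Mcm3 (0.37) moved less, and Pcna (0.15) and Cdt1 (0.08) least. The 6 MCM subunits, which form 1 ring, thus spanned 0.37 to 0.90. Among S phase genes the more abundant ones moved less, with a Spearman rho of −0.61 between level and slope across 17 genes, and 0.17 across the 23 mitosis genes; genes are not independent replicates, and Pcna and Cdt1 are the 2 most abundant.

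**Figure D3:**
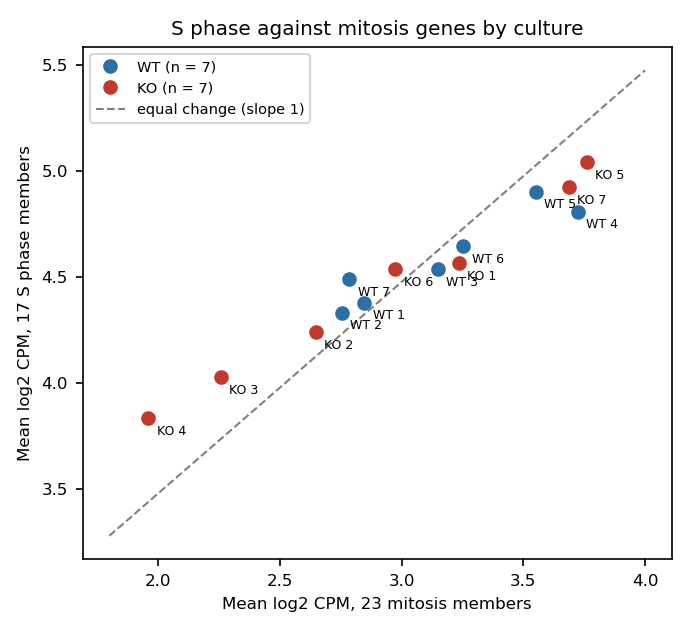
Mean log2 CPM of the 17 S phase genes (vertical) against that of the 23 mitosis genes (horizontal), 1 point per culture, KO in red and WT in blue, labelled by genotype and replicate. The dashed line marks equal change on both axes. Points from KO replicate 4 at 1.96 and 3.83 to KO replicate 5 at 3.76 and 5.04 rise less steeply than the line.

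S phase and mitosis genes rose and fell together, with the mitosis genes moving further. The mean log2 CPM of the S phase genes and that of the mitosis genes had r = 0.98 (rho 0.97) over the 14 cultures after removal of genotype means, 0.99 in KO and 0.94 in WT, and 0.96 without KO replicates 3 and 4. The S phase mean changed by 0.62 per log2 unit of the mitosis mean. In KO replicate 4, the mitosis genes made up 14.1% of the summed CPM of the 40 genes, and in WT replicate 4, 27.8%. The share was 27.1% in KO replicate 5 and 27.2% in KO replicate 7, so the 3 cultures with the most mitotic transcripts had the largest mitotic shares.

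Other genes of the same pathways followed. The mean of 42 other replication genes had r of 0.99 with the S phase mean, and that of 49 other mitosis genes had r of 1.00 with the mitosis mean (rho 0.99 and 1.00). The 8 G1 cyclins and kinases followed less closely (r = 0.66 with S phase, 0.75 with mitosis) and moved by 0.15 per log2 unit of the mitosis mean. Without KO replicates 3 and 4 these values fell to r of 0.43 and 0.58. For the 18 cell cycle inhibitors, r with the mitosis mean was −0.22 over all cultures, −0.61 in KO and 0.51 in WT, and 0.16 without KO replicates 3 and 4.

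The means of the marker lists had r between −0.44 and 0.32 with the S phase and mitosis means over all cultures. The mean of the astrocyte markers had r of 0.02 with the S phase mean and 0.16 with the mitosis mean, and of the 2 cultures with the highest mitosis mean, KO replicate 5 had the lowest summed astrocyte markers of all cultures (30.6 CPM) and WT replicate 4 the highest (276 CPM). For the microglia markers r was 0.32 and 0.23, for oligodendrocyte lineage markers −0.03 and 0.10, for neuron markers −0.22 and −0.11, for neural progenitor markers −0.14 and 0.02, and for vascular and fibroblast markers −0.44 and −0.32. The other leukocyte markers had r of −0.31 and −0.35 in all cultures, near 0 in KO (−0.01 and −0.03) and strongly negative in WT (−0.93 and −0.87, n = 7). Only 5 of the 10 genes of that list entered its mean, among them S100a9, at 0.02 to 6.07 CPM in WT. By contrast, the summed CPM of the list was highest in WT replicate 5 (707) and lowest in WT replicate 4 (329). These were the WT cultures with the highest mitosis means, so the r does not describe leukocyte RNA as a whole. Without KO replicates 3 and 4, r was −0.61 and −0.45 for the neuron markers and −0.55 and −0.38 for the vascular and fibroblast markers. The logarithm of the library total had r of −0.48 with the S phase mean and −0.51 with the mitosis mean. The part of these in the spread between cultures was not tested.

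**Figure D4:**
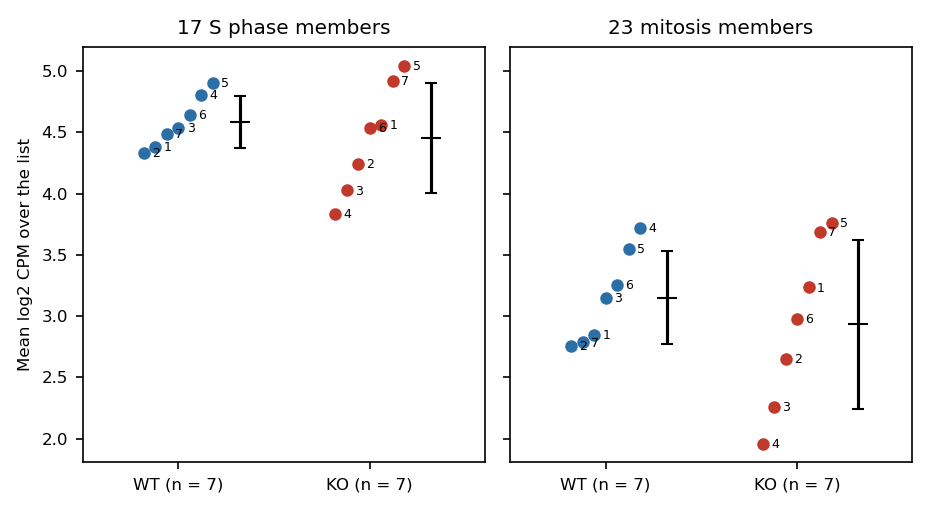
Mean log2 CPM of the S phase genes (left) and mitosis genes (right) in each WT (blue) and KO (red) culture, ordered by value within a group and numbered by replicate, with the group mean and SD in black (n = 7 each). KO cultures cover the whole WT range and reach further in both directions, from 1.96 to 3.76 for mitosis genes against 2.75 to 3.72 in WT.

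The comparison of KO with WT asked whether loss of TIMP2 changed the proliferation program, and no member passed the test. Over the S phase genes the mean log2 CPM was 4.45 ± 0.447 in KO and 4.58 ± 0.213 in WT (SD, n = 7 each). For the mitosis genes it was 2.93 ± 0.686 in KO and 3.15 ± 0.383 in WT. Of the 40 genes, 0 had an adjusted p under 0.05 (edgeR, quasi-likelihood, Benjamini-Hochberg), against 0.0191% of all tested genes, and 0 had an unadjusted p under 0.05, against 3.37%. DESeq2 also called 0 of the 40. The smallest adjusted p of any member was 0.943, and the KO and WT cultures overlapped for all 40, as they did for all but 0.0828% of tested genes.

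All 40 genes had a fitted log2 fold change below 0, as had 49.2% of all tested genes, the median being −0.06 over the S phase genes, −0.12 over the mitosis genes and 0.0016 over all tested genes. Since the 40 genes move together across cultures, their signs are not independent observations. The shared sign rested on single cultures. Without KO replicate 4, 17 of the 40 genes were lower in KO and the medians were 0.013 and 0.0045, and the count was 28 without KO replicate 3 and 29 without WT replicate 4 or WT replicate 5.

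**Figure D5:**
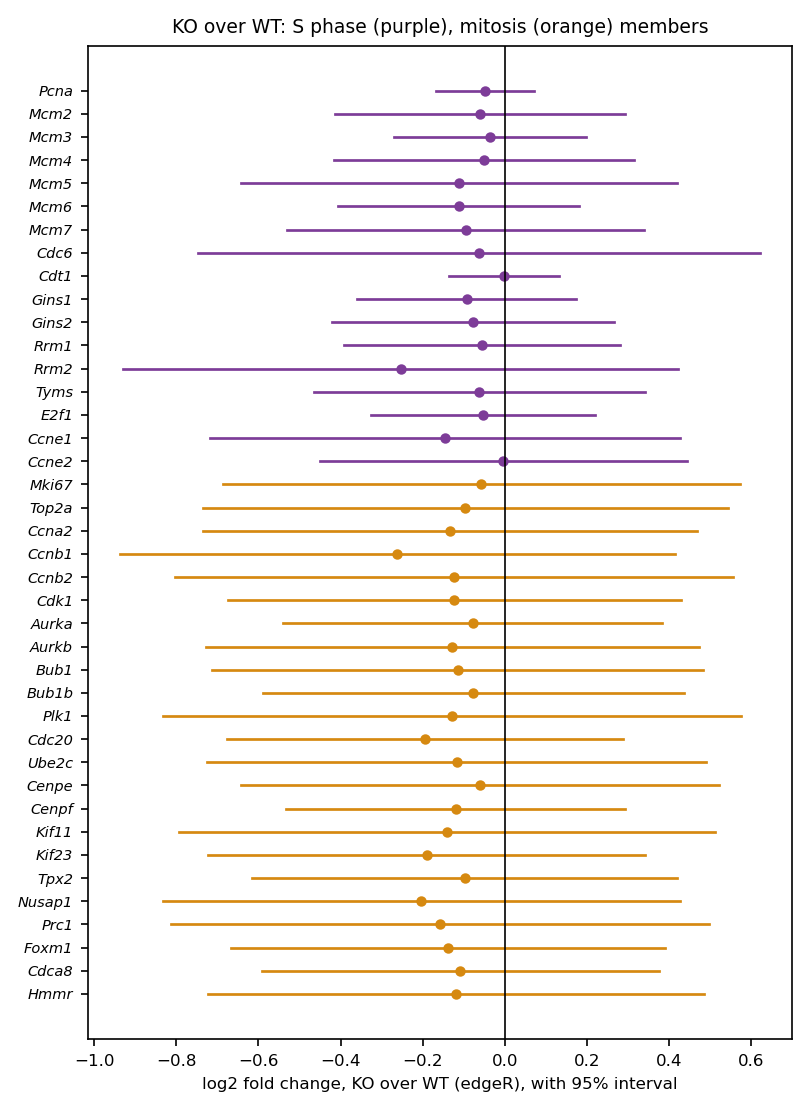
Log2 fold change, KO over WT, of the 40 genes in edgeR (points) with 95% intervals (lines), 17 S phase genes in purple and 23 mitosis genes in orange. Every interval includes 0 and lies within −1 and 1, from −0.94 for the lower bound of Ccnb1 to 0.62 for the upper bound of Cdc6. The intervals of Pcna and Cdt1 are the narrowest.

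Mki67 (ENSMUSG00000031004, chromosome 7, 135689784 to 135716361, GRCm38) had a lowest, median and highest level of 15.3, 35.0 and 61.9 CPM in KO and 27.3, 33.1 and 48.4 CPM in WT. The KO cultures enclosed the WT cultures on both sides. Its mean was 35.5 ± 18.9 CPM in KO and 36.9 ± 9.41 CPM in WT (SD, n = 7 each), with a log2 fold change of −0.06 (SE 0.295, 95% interval −0.69 to 0.57, adjusted p = 0.986 in edgeR, exact permutation p = 0.550 on log2 CPM). Its sign turned without any 1 of KO replicates 2, 3 and 4 or WT replicates 4 and 5, with values up to 0.07.

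Top2a (ENSMUSG00000020914, chromosome 11, 98992943 to 99024189) was measured at 14.9, 35.4 and 63.9 CPM in KO and 25.2, 36.6 and 55.5 CPM in WT. The lowest cultures were again KO replicates 4 and 3, at 14.9 and 18.8 CPM. Its log2 fold change was −0.10 (SE 0.300, adjusted p = 0.977 in edgeR, exact permutation p = 0.523), and it was above 0 without KO replicate 3 (0.01), KO replicate 4 (0.04) or WT replicate 4 (0.01).

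Cdk1 (ENSMUSG00000019942, chromosome 10, 69335146 to 69352938), whose promoter is shown above, ranged over 5.27, 12.2 and 19.6 CPM in KO and 10.3, 13.1 and 18.5 CPM in WT. Its log2 fold change was −0.12 (SE 0.258, adjusted p = 0.968 in edgeR, exact permutation p = 0.457) and 0.01 without KO replicate 4. Its partner Ccnb1 (ENSMUSG00000041431, chromosome 13, 100778650 to 100786570) had the lowest fold change of the 40. Ccnb1 was at 2.47, 6.55 and 11.0 CPM in KO and 5.34, 7.85 and 12.5 CPM in WT, so that its log2 fold change was −0.26 (SE 0.317, 95% interval −0.94 to 0.41, adjusted p = 0.944 in edgeR, exact permutation p = 0.299). For both genes the 3 lowest cultures were KO replicates 4, 3 and 2, and the remaining KO cultures lay among the WT cultures or above them.

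The mitosis genes with the smallest unadjusted p beside Ccnb1 were Cdc20, Kif23 and Nusap1. Cdc20 (ENSMUSG00000006398, chromosome 4, 118432901 to 118437352) had 3.85, 5.24 and 8.76 CPM in KO and 5.16, 7.07 and 11.0 CPM in WT, with a log2 fold change of −0.19 (SE 0.226, adjusted p = 0.943 in edgeR, exact permutation p = 0.361). Kif23 (ENSMUSG00000032254, chromosome 9, 61915905 to 61946774), a motor of the central spindle, had 3.39, 6.43 and 11.6 CPM in KO and 6.06, 7.77 and 10.1 CPM in WT, and its log2 fold change was −0.19 (adjusted p = 0.945 in edgeR, exact permutation p = 0.313). Nusap1 (ENSMUSG00000027306, chromosome 2, 119618298 to 119651244), a microtubule-binding protein of the spindle, was at 2.16, 4.29 and 8.26 CPM in KO and 3.88, 4.95 and 8.41 CPM in WT, a log2 fold change of −0.20 (adjusted p = 0.951 in edgeR, exact permutation p = 0.371). For each of these genes the lowest cultures were KO replicates 3 and 4, while the highest was WT replicate 4 for Cdc20 and Nusap1 and KO replicate 5 for Kif23.

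Of the S phase genes, Pcna (ENSMUSG00000027342, chromosome 2, 132249162 to 132253314) was estimated most tightly. It was at 261, 315 and 350 CPM in KO and 306, 331 and 341 CPM in WT, and KO over WT was −0.05 on the log2 scale (SE 0.0558, 95% interval −0.17 to 0.07, adjusted p = 0.943 in edgeR, exact permutation p = 0.429). Its lowest culture was KO replicate 3, and its highest KO replicate 1. Cdt1, the other steady gene, had a log2 fold change of −0.0024 (95% interval −0.14 to 0.13).

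Mcm2 (ENSMUSG00000002870, chromosome 6, 88883474 to 88898780) was at 26.6, 41.3 and 60.9 CPM in KO and 36.9, 42.0 and 54.2 CPM in WT, with a log2 fold change of −0.06 (SE 0.165, adjusted p = 0.973 in edgeR, exact permutation p = 0.569). Its sign also turned without KO replicate 3 (0.0024) or KO replicate 4 (0.025). Mcm6 (ENSMUSG00000026355, chromosome 1, 128331590 to 128359664) was at 58.8, 84.3 and 115 CPM in KO and 81.3, 86.4 and 111 CPM in WT, with a log2 fold change of −0.11 (SE 0.138, adjusted p = 0.944 in edgeR, exact permutation p = 0.369). Both helicase genes were lowest in KO replicate 4 and highest in KO replicate 5.

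Rrm2 (ENSMUSG00000020649, chromosome 12, 24708241 to 24714146), the reductase subunit whose level follows S phase, was at 4.72, 12.6 and 23.8 CPM in KO and 11.5, 16.1 and 26.7 CPM in WT. Its log2 fold change was −0.25 (SE 0.317, 95% interval −0.93 to 0.42, adjusted p = 0.945 in edgeR, exact permutation p = 0.308). Gins1 (ENSMUSG00000027454, chromosome 2, 150905400 to 150931280) was at 5.63, 7.27 and 8.89 CPM in KO and 5.81, 7.91 and 8.98 CPM in WT, and KO over WT was −0.09 on the log2 scale (SE 0.125, adjusted p = 0.946 in edgeR, exact permutation p = 0.464). The KO and WT ranges of Gins1 nearly coincided.

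The remaining S phase genes had log2 fold changes between −0.15 (Ccne1) and −0.0037 (Ccne2), and the remaining mitosis genes between −0.16 (Prc1, which bundles the central spindle) and −0.06 (Cenpe, a kinetochore motor). Among these, the kinases Aurka, Aurkb and Plk1 and the spindle checkpoint genes Bub1 and Bub1b lay between −0.13 and −0.08, the motor Kif11 at −0.14 and the spindle proteins Tpx2 and Hmmr at −0.10 and −0.12. Foxm1, the transcription factor of mitotic genes, was at −0.14 and Cdca8, a partner of Aurkb, at −0.11. Standard errors of the 40 genes ran from 0.0558 to 0.330 and exceeded the size of the fold change for every gene. In the main edgeR fit, a 2-fold difference, 1 on the log2 scale, lay outside all 40 of the 95% intervals. That fit takes 1 spread per gene for both genotypes, although the SD of log2 CPM was higher in KO for all 40. Without KO replicate 7 the fitted value of Ccnb1 was −0.44. Whether a 2-fold difference lay outside the intervals of other fits was not examined.

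The fold changes fitted to counts were smaller than the differences between mean log2 CPM, since the former compare mean levels and the latter mean logarithms. For Mki67 the difference of mean log2 CPM was −0.20 beside a fitted −0.06, and for Rrm2 −0.40 beside −0.25. Neither measure separated the genotypes.

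KO cultures were more spread than WT cultures. The SD of log2 CPM was higher in KO for all 40 genes, against 58% of all tested genes, and its median over the genes was 0.64 in KO and 0.33 in WT. For Mki67 it was 0.80 in KO and 0.37 in WT. It remained so for all 40 genes without any single culture, against 51.6% to 65.3% of all tested genes. With KO replicates 3 and 4 both left out, an alternative chosen after seeing the data, the SD was higher in KO for 36 of 40 genes, against 54.8% of all tested genes. The SD of the mitosis mean was then 0.47 in KO beside 0.38 in WT. In that setting KO minus WT was 0.11 for the mitosis mean and 0.08 for the S phase mean, beside −0.22 and −0.13 in all cultures. As the 40 genes move together, this difference in spread was not tested.

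The balance of S phase over mitosis was close in both genotypes. The mean log2 CPM of the S phase genes exceeded that of the mitosis genes by 1.52 ± 0.247 in KO and 1.43 ± 0.198 in WT (SD, n = 7 each), a difference of 0.09 that was smaller than either SD. It ranged between 1.24 in KO replicate 7 and 1.87 in KO replicate 4, and between 1.09 in WT replicate 4 and 1.70 in WT replicate 7.

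The other cell cycle lists gave no call between KO and WT either. Of 42 other replication genes, 35 were lower in KO with 0 past the threshold, where 49.2% of all tested genes were below 0. Those with the smallest p were Rfc4 (−0.17), a subunit of the clamp loader, and the origin recognition subunits Orc1 (−0.30) and Orc2 (−0.06). Each had an adjusted p = 0.943 in edgeR. Of 49 other mitosis genes, 45 were lower with 0 past the threshold. Those with the smallest p were Pttg1 (0.09, above 0), which encodes securin, Nek2 (−0.29), a centrosome kinase, and Kif18a (−0.17), a kinesin. All 8 G1 cyclins and kinases were below 0, among them Cdk6 (−0.04), Ccnd2 (−0.35) and Ccnd1 (−0.14), and 7 of 18 cell cycle inhibitors were, with E2f4 (0.04), Tob1 (−0.10) and Rbl2 (0.04) having the smallest p. In these 4 lists 0 genes had an unadjusted p under 0.05, against 3.37% of all tested genes. The replication and mitosis list means followed those of the members across cultures, so the signs in those lists are not independent observations.

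Among markers of other cells, all 10 tested astrocyte markers had values below 0 for KO over WT (median −0.66 on the log2 scale), against 49.2% of all tested genes. Of these markers, 1 had an unadjusted p under 0.05 in edgeR, against 3.37% of all tested genes, and 0 an adjusted one. The mean log2 CPM of the list was 2.32 ± 0.852 in KO and 2.90 ± 0.937 in WT (SD, n = 7 each). Their summed level was 30.6 to 147 CPM in KO and 35.3 to 276 CPM in WT, and of the list, Gjb6 was at 0 in KO replicate 7 and above 0 in the other cultures, and none was at 0 in all. Of the other lists, 11 of 11 neuron markers (median −0.30), 7 of 9 oligodendrocyte lineage markers (−0.33), 5 of 7 neural progenitor markers (−0.20) and 7 of 11 vascular and fibroblast markers (−0.22) were below 0, while 12 of 13 microglia markers (0.04) and 4 of 5 other leukocyte markers (0.19) were above 0, and 0 genes of these lists had an unadjusted p under 0.05. Markers within a list share the same cultures, so their signs are not independent observations. The part of these markers in the KO and WT levels of the 40 genes was not tested.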

How the data were processed

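The authors deposited raw read counts per Ensembl gene, 1 column per culture, without normalization. The submitters' processing notes name Trimmomatic 0.36, STAR 2.5.2b, featureCounts of Subread 1.5.2, DESeq2 and GRCm38. The strand setting and the batch of each library are not given in the sources used here. The study's own DESeq2 fit held batch as a covariate, whereas the main test here held genotype alone. Gene names and exons were taken from GENCODE M21, which matched 49056 of 49315 genes. The 40 members and all lists were chosen with earlier results of these data known, and genes were named by a fixed rule: all members by role; in full Mki67, Top2a, Pcna, Mcm2, Ccnb1, Cdk1, the 4 members of each list with the smallest p and the most abundant of each; and the 3 genes of each other cell cycle list with the smallest p.

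Groups and replicate numbers came from the sample labels. Low genes were removed by filterByExpr (count of at least 10, total of at least 15), and the rest scaled with TMM and tested across all 15700 genes with edgeR 4.0.16 in R 4.3.3 (quasi-likelihood, two-sided, Benjamini-Hochberg). Log2 CPM used a prior count of 1. Single genes were compared by a two-sided exact permutation over 3432 splits (smallest p 0.000583), and correlations by 100000 permutations within genotype. Adjustment of the correlations over all tested genes, in place of the members, was chosen after seeing the data. Promoter windows were searched for exact words in 250 bases. The fits were checked on simulated data. Alternatives were other scaling, no filter, DESeq2 1.42.0, a replicate block and leaving out each culture. Replicates are independent pools of pups.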

Additional observations from a re-analysis of the deposited data

Results flagged for a closer look

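Within a group of 7 cultures, 1 culture stood apart from the other 6 in 2 of 96 groups examined (genes and list means in each genotype), by a gap to the nearest culture that was most of the range of the group (0.601 of it for Cdt1 and 0.739 for E2f1). Chance alone gives about 1 such flag in 20 groups. Cdt1 in WT replicate 4 was at 6.30 log2 CPM, above the 6.03 to 6.14 of the other WT cultures. E2f1 in WT replicate 5 was at 5.29 log2 CPM, above the 4.88 to 4.98 of the other WT cultures.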

How the results depend on the processing

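No member was called in any of 21 alternatives, and the smallest adjusted p of a member lay between 0.712 and 1.00 in them. The count of called genes over the whole table was 3 in the main edgeR test, 15 with DESeq2, 26 with DESeq2 and the replicate block, and between 3 and 4 with 1 culture left out. Scaling, the filter and the tool left all 40 members below 0. With 1 culture left out, the members lower in KO were 17 (without KO replicate 4) to 40, the median log2 fold change was −0.17 to 0.013 for S phase and −0.29 to 0.0045 for mitosis genes, the S phase minus mitosis difference was 0.03 to 0.14 and the r of the S phase with the mitosis mean was 0.97 to 0.99. Single genes reached values above 0 only in such fits, with ranges of −0.25 to 0.073 for Mki67 (0.02, 0.06 and 0.073 without KO replicates 2, 3 and 4, 0.02 and 0.01 without WT replicates 4 and 5), −0.29 to 0.039 for Top2a, −0.17 to 0.025 for Mcm2 (0.0024 without KO replicate 3) and −0.27 to 0.0088 for Cdk1, each highest without KO replicate 4. The replicate block, from numbers in the labels, moved that r to 1.00 (0.997). With it, edgeR and DESeq2 gave −0.18 and −0.20 for Mki67, −0.19 and −0.21 for Top2a, −0.10 and −0.11 for Mcm2, −0.20 and −0.21 for Cdk1, and medians of −0.10 and −0.10 for S phase and −0.19 and −0.21 for mitosis genes, each over 1.5 times the value without it. Same-numbered KO and WT cultures had a mean r of 0.10 (−0.20 to 0.74, 3 of 7 over 0.1), against −0.02 (−0.61 to 0.58) for other pairs. Of the 7 KO cultures, 1 correlated best with its own number. As no label gives a batch, these values do not settle whether the numbers mark pairs. The main test held no batch term. With the block, edgeR called 0 members and 3 genes. How far the spread between cultures or depth limits what these 7 against 7 can show was not tested.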
